A study of Homo sapiens with 5 samples.

Results

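The plasminogen activation system turns the plasma protein plasminogen into plasmin, a protease that degrades fibrin and matrix proteins around cells. Urokinase (uPA, from PLAU) and tissue-type plasminogen activator (tPA, from PLAT) cut plasminogen, and the GPI-anchored receptor uPAR (from PLAUR) holds uPA on the cell surface. Serpins block the activators by forming covalent complexes with them, and squamous carcinoma cells are known for making uPA, uPAR and their inhibitors. Of the serpin genes described here, SERPINB2 encodes PAI-2, an inhibitor of uPA that stays largely inside the cell and is also made by monocytes, and SERPINE2 encodes protease nexin-1, a secreted inhibitor of thrombin, uPA and plasmin.

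The data describe the mRNA of 5 genes, PLAU (gene 5328), PLAT (gene 5327), PLAUR (gene 5329), SERPINB2 (gene 5055) and SERPINE2 (gene 5270), out of 15187 genes listed in both deposited expression tables. The genes were taken by name, except that SERPINB2 was chosen by its measured log2 changes, which were opposite in the 2 tables. Its change is therefore given as a description, with no test. All 5 genes passed the filter on low counts, which left 13123 genes for testing.

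The RNA came from SAS, a human cell line established from squamous carcinoma of the tongue, and was read by RNA-seq. There were 3 libraries of cells with short hairpin RNA against CCT2 (shCCT2, labelled as CCT2 knockdown) and 2 libraries of cells with control hairpin (shCtrl, labelled as control). The product of CCT2 is part of the chaperonin that folds actin and tubulin. The first deposited table held shCCT2 1, shCCT2 2 and shCtrl 1, called set 1 here, and the other table held shCCT2 3 and shCtrl 2, called set 2. The labels give neither the number of hairpin sequences nor separate cultures, so p-values reflect the spread among 5 libraries, and that spread may be technical. shCCT2 1 and shCCT2 2 share their control, so a change common to both is not an independent repeat.

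The libraries held between 16913585 and 18156592 counts. CCT2 stood at 296, 272 and 260 TMM-scaled CPM, the unit of all levels below, in shCCT2 1, 2 and 3, against 629.9 CPM in shCtrl 1 and 642 CPM in shCtrl 2. Its fitted log2 change was -1.22 ± 0.18 (SE, 3 knockdown and 2 control libraries), which did not pass edgeR's quasi-likelihood test (Benjamini-Hochberg adjusted p = 0.542 over all genes) and passed DESeq2's Wald test (adjusted p = 3.81e-05). The 2 control libraries differed from each other by at least 2-fold at 29.7% of the genes tested. The share of coverage in the last 20% of the windows along transcripts was between 13.8% and 15.3% in knockdown libraries and between 15.2% and 16.7% in controls. The 9 squamous epithelial marker genes read to check the cell type were each at 1 CPM or more in every library. Their summed level ran from 2063 to 4294 CPM in knockdown libraries and was 5066 CPM in shCtrl 1 and 1354 CPM in shCtrl 2. Every squamous marker but KRT6A was lower in shCtrl 2 than in shCtrl 1, with CDH1 at 10.6 against 251 CPM. KRT6A stood at 630 CPM in shCCT2 3, against 64.8 CPM in shCtrl 2. Of 6 fibroblast markers, the 2 listed in both tables (COL1A1 and PDGFRB) summed to 3.004, 3.46 and 4.53 CPM in shCCT2 1, 2 and 3, against 4.04 CPM in shCtrl 1 and 11.8 CPM in shCtrl 2.

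With all 5 libraries and the table as a term, edgeR's quasi-likelihood test passed 0% of the genes at a Benjamini-Hochberg adjusted p under 0.05, and none of the 4 tested members. At an unadjusted p under 0.05 it held 972 genes, 7.41% of those tested, and PLAT was the 1 tested member among them, on the lower side that held 4.57% of genes, and none was on the higher side, which held 2.83%. DESeq2's Wald test passed 17 genes, none of them a gene of the pathway lists described here. The members are therefore described by their values. PLAT and PLAUR were the 2 members with lower values in all 3 knockdown libraries, a pattern that 21.4% of all tested genes showed. No member was higher in all 3, against 20.2% of all genes, and none lay above both controls in all 3, against 7.97%. PLAU and SERPINB2 were the 2 members lower in both set 1 libraries and higher in the set 2 library, a pattern of 11% of all genes and, for SERPINB2, the reason for its choice.

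In shCCT2 1, PLAT was the 1 member at least 2-fold from its control, on the lower side, where 8.45% of all genes were that far in either direction, 6.29% lower and 2.35% higher. In shCCT2 2, SERPINB2 was the 1 member that far, on the lower side, where 4.72% of all genes were that far, 2.72% lower and 2.19% higher. In shCCT2 3, SERPINE2 and SERPINB2 were at least 2-fold higher, where 26% of all genes were that far, 9.93% higher and 16.1% lower. No member was at least 2-fold lower in shCCT2 3. SERPINB2 was picked for its changes in these libraries, so its place beside these shares is no result. Leaving it aside, no member was that far in shCCT2 2 and only SERPINE2 was in shCCT2 3.

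**Figure D1:**
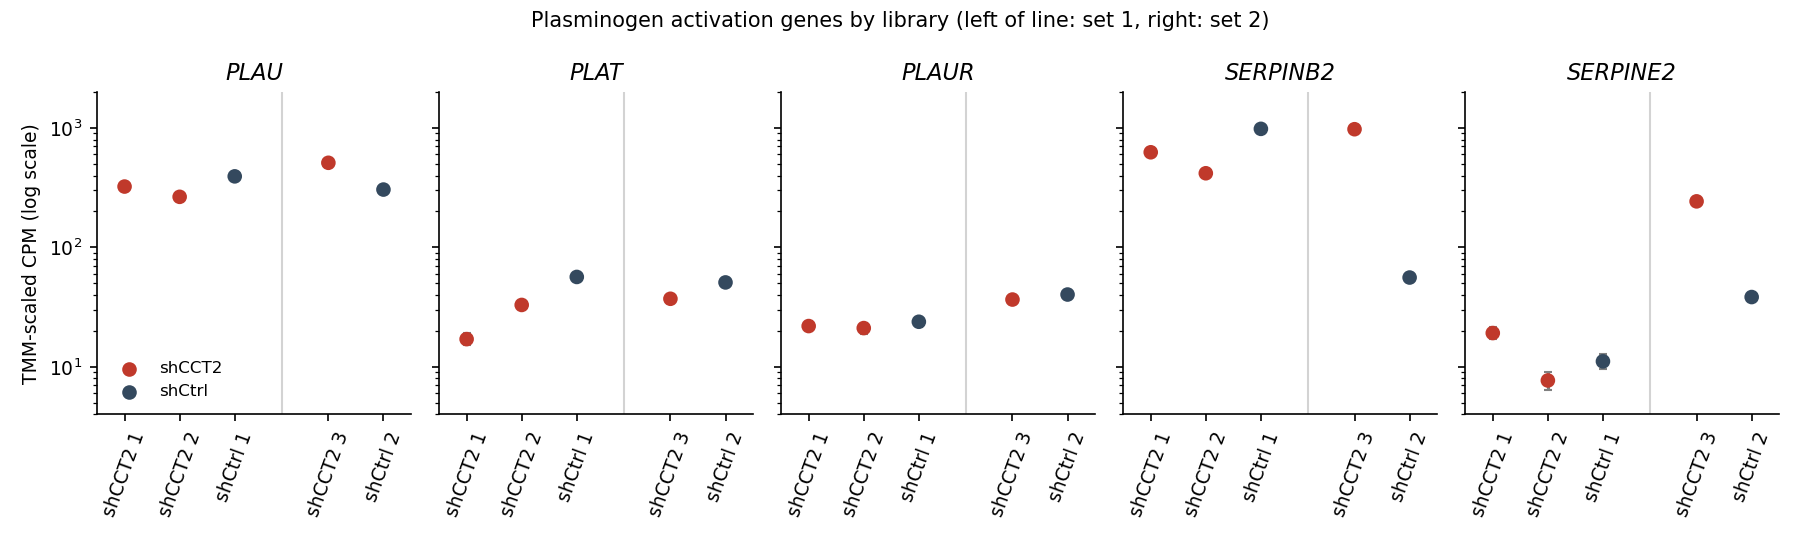
TMM-scaled CPM (log axis) of the 5 genes in each library, with shCCT2 libraries in red, shCtrl libraries in dark blue, and set 1 and set 2 on either side of the line. Bars are exact 95% Poisson intervals and cover counting error only. SERPINB2 stands at 56.0 CPM in shCtrl 2 and at 418 CPM or more in the other 4 libraries.

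Of the activators, PLAU was the more abundant per length in every library. PLAU stood at 323 CPM in shCCT2 1 and 265 CPM in shCCT2 2, against 393 CPM in shCtrl 1, and at 511 CPM in shCCT2 3, against 305 CPM in shCtrl 2. It was thus lower in both knockdown libraries of set 1 and higher in the knockdown library of set 2, and the groups overlapped. The log2 changes were -0.28, -0.57 and 0.74 in shCCT2 1, 2 and 3, and the fitted change was 0.06 ± 0.30 (SE; edgeR, Benjamini-Hochberg adjusted p = 0.938). The 95% interval of that change ran from -0.65 to 0.77. The change in set 2 exceeded that in set 1 by 1.16 ± 0.33 (SE) on the fitted log2 scale, which did not pass edgeR's test of the difference after adjustment over all genes (unadjusted p = 0.0130, adjusted p = 0.198). That test had 1 residual degree of freedom, held 17.2% of all genes at an unadjusted p under 0.05 and passed 0% after adjustment. The fitted change of PLAU was -0.42 without shCtrl 2 or without shCCT2 3, 0.77 without shCtrl 1 and -0.0021 with no scaling beyond the library total. PLAU overlaps C10orf55 on the opposite strand, and both had counts that were not whole, so reads of the pair may be shared. C10orf55 held between 17.6 and 37.3 expected counts per library, against at least 4443 for PLAU.

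PLAT, the gene of tPA, had 17.1 CPM in shCCT2 1, 33.0 CPM in shCCT2 2 and 37.2 CPM in shCCT2 3, against 56.6 CPM in shCtrl 1 and 51.0 CPM in shCtrl 2. Every knockdown library lay below both controls, as was the case for 8.28% of all genes tested. PLAT was 3.31-fold lower in shCCT2 1, 1.72-fold lower in shCCT2 2 and 1.37-fold lower in shCCT2 3 than in the control of the same table. The exact 95% Poisson interval of its level was 34.4 to 40.1 CPM in shCCT2 3 and 47.8 to 54.3 CPM in shCtrl 2, so that pair differed by more than counting error. Of all genes, 0.541% were at least as far down as PLAT in shCCT2 1. The fitted log2 change was -0.87 ± 0.33 (SE), with an unadjusted p of 0.0353 and a Benjamini-Hochberg adjusted p of 0.542 (edgeR). Its 95% interval ran from -1.66 to -0.08, and the change was -0.42 without shCtrl 1.

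Endothelial cells are a known source of tPA, and 5 of their marker genes were read, of which TEK had values in set 1 alone (2 counts or fewer). The summed level of the other 4, PECAM1, VWF, CDH5 and KDR, was between 1.31 and 3.46 CPM in knockdown libraries, against 4.38 CPM in shCtrl 1 and 7.48 CPM in shCtrl 2. KDR was at 0 counts in shCCT2 2, shCCT2 3 and shCtrl 1. PECAM1 had 0.353, 0.119 and 0.0546 CPM in shCCT2 1, 2 and 3, against 0.0577 CPM in shCtrl 1 and 1.27 CPM in shCtrl 2. CDH5 had 0.766, 2.51 and 0.764 CPM in shCCT2 1, 2 and 3, against 2.02 CPM in shCtrl 1 and 5.73 CPM in shCtrl 2. VWF had 0.943, 0.836 and 0.491 CPM in shCCT2 1, 2 and 3, against 2.31 CPM in shCtrl 1 and 0.371 CPM in shCtrl 2. PECAM1, CDH5 and VWF thus did not share 1 direction against their controls. The part of endothelial RNA in the PLAT values was not tested. In bulk RNA, fewer cells of a type and less RNA per cell cannot be told apart.

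PLAUR, the gene of the uPA receptor, stood at 22.0 CPM in shCCT2 1 and 21.1 CPM in shCCT2 2, against 23.9 CPM in shCtrl 1, and at 36.6 CPM in shCCT2 3, against 40.3 CPM in shCtrl 2. The knockdown values lay just below their own control in each table, and the set 2 libraries lay above those of set 1. The log2 changes of -0.12, -0.17 and -0.14 spanned less than those of any other member. The fitted change was -0.14 ± 0.20 (SE; edgeR, Benjamini-Hochberg adjusted p = 0.754), with a 95% interval from -0.63 to 0.34. The Poisson intervals in shCCT2 1 (19.8 to 24.3 CPM) and shCCT2 2 (19.0 to 23.5 CPM) overlapped that in shCtrl 1 (21.6 to 26.3 CPM), though the interval in shCCT2 2 lay just below the shCtrl 1 level itself. The interval in shCCT2 3 was 33.9 to 39.5 CPM and overlapped that of shCtrl 2 (37.5 to 43.3 CPM). The change in set 2 differed from that in set 1 by 0.0081 ± 0.34 (SE).

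**Figure D2:**
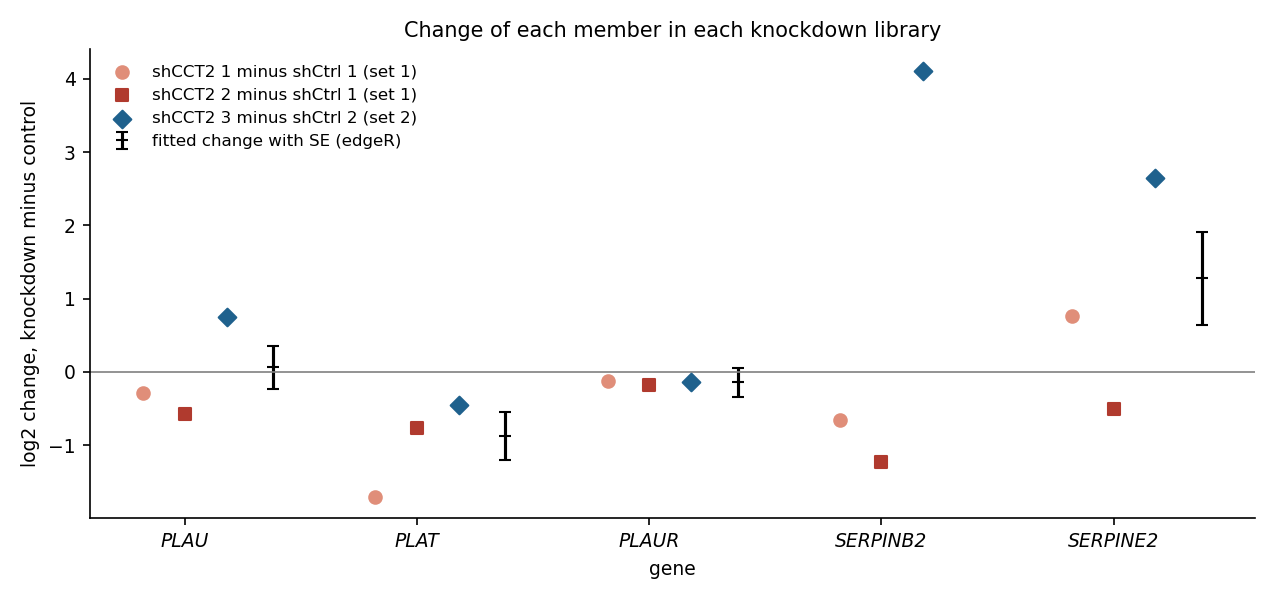
Log2 change of each gene in each knockdown library against the control of its own table, with circles and squares for set 1 and diamonds for set 2. Black bars give the edgeR fitted change with its SE for the 4 tested genes. PLAT and PLAUR lie below 0 in all 3 libraries, and SERPINB2 lies at -0.65, -1.23 and 4.11.

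SERPINB2, the gene of PAI-2, had 626 CPM in shCCT2 1 and 418 CPM in shCCT2 2, against 983 CPM in shCtrl 1. In set 2 it had 976 CPM in shCCT2 3, against 56.0 CPM in shCtrl 2. It was lower by 1.57-fold and 2.35-fold in the set 1 libraries and 17.4-fold higher in shCCT2 3 than in the control of the same table, the contrast for which it was picked. The level in shCCT2 3 was close to that in shCtrl 1, and the low value was that of shCtrl 2. Between the controls, SERPINB2 was 17.6-fold lower in shCtrl 2 than in shCtrl 1, and 1.25% of all genes differed at least as far between these libraries. Of all genes, 0.0381% were at least as far up in shCCT2 3. Both shares place values for which SERPINB2 was picked, so neither is a test of it. Ranked by CPM among the 13123 tested genes, SERPINB2 was number 213 in shCCT2 1, 375 in shCCT2 2, 93 in shCCT2 3, 108 in shCtrl 1 and 3910 in shCtrl 2. The fitted change over both tables was 0.72, was 4.15 without shCtrl 1 and was -0.91 without shCtrl 2 or without shCCT2 3, so it stands for neither table.

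SERPINB2 is abundant in monocytes, so 7 monocyte and macrophage markers were read, 6 of them listed in both tables. The summed level of those 6 was 81.8, 123 and 44.9 CPM in shCCT2 1, 2 and 3, against 121 CPM in shCtrl 1 and 62.2 CPM in shCtrl 2. Most of it was CD68, a lysosomal protein gene that other cells also express, at 43.6 to 98.3 CPM in knockdown libraries, against 112 CPM in shCtrl 1 and 60.1 CPM in shCtrl 2. The leukocyte gene PTPRC had 0.648, 6.51 and 0.0546 CPM in shCCT2 1, 2 and 3. It had 0.0577 CPM (1 count) in shCtrl 1 and 0.424 CPM (8 counts) in shCtrl 2. CD14 had 2.95, 15.5 and 0.328 CPM in shCCT2 1, 2 and 3, against 6.23 CPM in shCtrl 1 and 1.06 CPM in shCtrl 2. CSF1R had 3.71, 1.85 and 0.491 CPM in shCCT2 1, 2 and 3, against 2.54 CPM in shCtrl 1 and 0.371 CPM in shCtrl 2. CD14, CSF1R and SERPINB2 were thus all lower in shCtrl 2 than in shCtrl 1, while PTPRC was higher in shCtrl 2. CD14, CSF1R and PTPRC were low in shCCT2 3, where SERPINB2 was high. FCGR3A, listed in set 1 alone, had 0 counts in shCCT2 2 and shCtrl 1, and ITGAM had 0 in shCtrl 2. The part of monocyte RNA in the SERPINB2 values was not tested.

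SERPINE2, the gene of protease nexin-1, stood at 19.2 CPM in shCCT2 1 and 7.70 CPM in shCCT2 2, against 11.1 CPM in shCtrl 1. In set 2 it stood at 243 CPM in shCCT2 3, against 38.4 CPM in shCtrl 2. The knockdown libraries of set 1 lay on opposite sides of their shared control, and shCCT2 3 lay above every other library. SERPINE2 was 6.32-fold higher in shCCT2 3 than in shCtrl 2, and 0.381% of all genes were at least as far up there. The log2 changes were 0.76, -0.50 and 2.64, and the fitted change was 1.27 ± 0.63 (SE; edgeR, Benjamini-Hochberg adjusted p = 0.542). The change in set 2 exceeded that in set 1 by 2.39 ± 0.74, which did not pass after adjustment (edgeR, unadjusted p = 0.0192, adjusted p = 0.219). The fitted change was 0.27 without shCtrl 2 or without shCCT2 3, and 2.69 without shCtrl 1. Between the controls, SERPINE2 was 3.45-fold higher in shCtrl 2 than in shCtrl 1, while SERPINB2 differed the other way.

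Promoter sequence is shown for 3 members, as the stretch of 250 bases before a transcription start in RefSeq (GRCh38.p14), 5′ to 3′ on the strand of the gene. SERPINB2 (chr18:63887455-63887704, plus strand) and PLAUR (chr19:43670170-43670419, minus strand) are shown because each holds the AP-1 motif TGANTCA, which capitals mark. SERPINE2 (chr2:224031479-224031728, minus strand, 1 of 2 RefSeq start windows) is shown for its repeated CCAAT box, marked by capitals on either strand.
SERPINB2: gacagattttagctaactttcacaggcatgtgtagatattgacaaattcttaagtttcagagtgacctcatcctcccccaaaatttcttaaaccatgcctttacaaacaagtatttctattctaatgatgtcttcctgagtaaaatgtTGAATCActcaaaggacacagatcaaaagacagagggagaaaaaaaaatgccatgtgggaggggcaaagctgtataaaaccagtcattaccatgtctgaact
PLAUR: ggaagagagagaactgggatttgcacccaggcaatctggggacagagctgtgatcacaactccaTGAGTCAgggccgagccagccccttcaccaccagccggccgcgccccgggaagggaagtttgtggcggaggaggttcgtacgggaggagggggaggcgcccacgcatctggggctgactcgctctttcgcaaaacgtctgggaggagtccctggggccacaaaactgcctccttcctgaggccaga
SERPINE2: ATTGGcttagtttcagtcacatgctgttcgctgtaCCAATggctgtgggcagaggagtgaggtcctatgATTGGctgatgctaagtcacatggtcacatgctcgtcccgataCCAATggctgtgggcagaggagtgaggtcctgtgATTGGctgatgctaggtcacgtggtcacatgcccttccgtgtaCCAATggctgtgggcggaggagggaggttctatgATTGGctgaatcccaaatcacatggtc
The AP-1 match begins 102 bases before the start in SERPINB2 and 186 bases before it in PLAUR, and 6.57% of the 35116 RefSeq windows of this length hold TGANTCA. The SERPINB2 window also holds a TATA box (TATAAA) 30 bases before the start, found in 10.7% of windows on either strand. The SERPINE2 window shown holds CCAAT 7 times over both strands, where 32.0% of windows hold it at least once. It also holds an E-box (CACGTG) 87 bases before the start, found in 6.34% of windows. The other SERPINE2 window holds neither CCAAT nor CACGTG. Neither PLAU window holds TGANTCA, and 1 of the 2 holds 3 GC boxes (GGGCGG), found in 42.6% of windows. No promoter sequence is shown for PLAT. These matches describe letters in a window and show no binding.

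Levels of different genes were compared per length, as CPM per kilobase of the longest protein-coding transcript in GENCODE 29. PLAU ranged from 99.8 to 192 CPM per kb in knockdown libraries and was 148 in shCtrl 1 and 115 in shCtrl 2. That was above the whole range of PLAUR (13.1 to 22.8 CPM per kb in knockdown libraries, 14.8 in shCtrl 1 and 25.1 in shCtrl 2). PLAT ran from 6.31 to 13.7 CPM per kb in knockdown libraries and was 20.9 in shCtrl 1 and 18.8 in shCtrl 2, so PLAT and PLAUR overlapped over the libraries and have no fixed order. SERPINB2 was above PLAU in every library but shCtrl 2, at 290, 194 and 453 CPM per kb in shCCT2 1, 2 and 3, against 456 in shCtrl 1 and 26.0 in shCtrl 2. SERPINE2 ran from 2.997 to 94.6 CPM per kb in knockdown libraries and was 4.33 in shCtrl 1 and 15.0 in shCtrl 2, a range that overlaps those of PLAUR and PLAT.

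The ratio of the inhibitor mRNAs (SERPINB2 and SERPINE2, summed CPM per kb) to the activator mRNAs (PLAU and PLAT) was 2.33 in shCCT2 1 and 1.76 in shCCT2 2, against 2.73 in shCtrl 1. In set 2 it was 2.66 in shCCT2 3, against 0.306 in shCtrl 2. The activator mRNA of these genes thus exceeded their inhibitor mRNA in shCtrl 2 and in no other library. SERPINB2 largely sets this ratio, so it is not independent of the choice of that gene. The ratio of PLAU to PLAT mRNA, also per kb, was 19.3, 8.18 and 14.0 in shCCT2 1, 2 and 3, against 7.07 in shCtrl 1 and 6.10 in shCtrl 2.

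**Figure D3:**
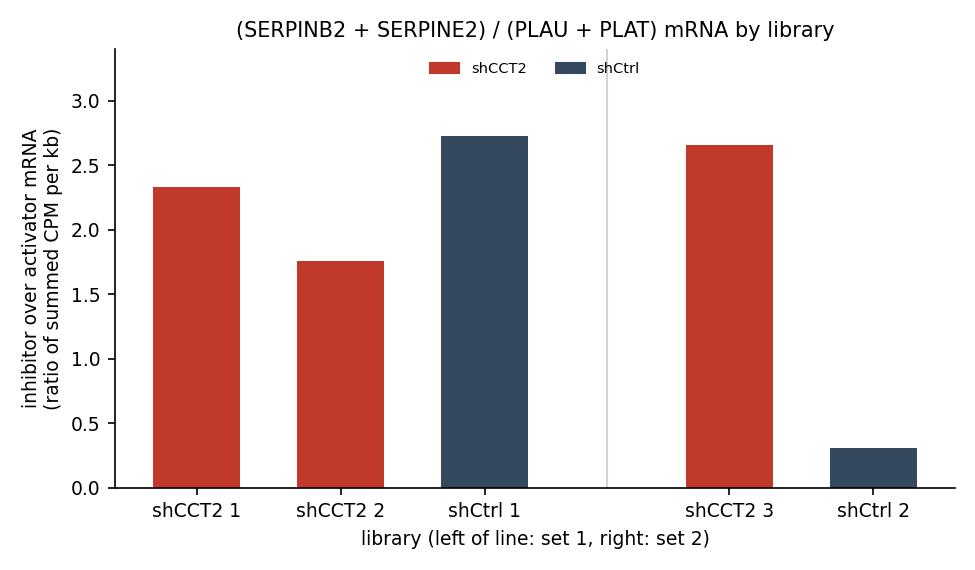
Ratio of summed inhibitor to summed activator mRNA (CPM per kb) in each library, with shCCT2 in red and shCtrl in dark blue. The bars give SERPINB2 and SERPINE2 over PLAU and PLAT. The bar of shCtrl 2 stands at 0.306, and all other bars stand at 1.76 or more.

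Other inhibitors of the system were 8 listed genes, of which 4 could be tested. None passed in either direction. TFPI2, which encodes a secreted inhibitor of plasmin and other serine proteases, was listed in set 2 alone, at 15.6 CPM in shCCT2 3, against 99.1 CPM in shCtrl 2. SERPING1, the C1 inhibitor gene, stood at 16.1 CPM in shCCT2 3, against 15.7 CPM in shCtrl 2, and at 0.0597 CPM or less in set 1. SERPINF2, SERPINI1 and SERPINA5 stood at 2.77 CPM or less in every library. All 4 had a fitted change below 0, as did 51.5% of all tested genes, and 2 were lower in all 3 knockdown libraries, against 21.4% of all genes. The median fitted change was -0.58, against -0.02 over all genes.

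Plasminogen itself (PLG) had no value in any library. Of 6 listed genes for plasminogen and its surface receptors, 5 were tested and none passed. ANXA2, which encodes the annexin that pairs with S100A10 to bind plasminogen, stood at 2613 CPM in shCCT2 1 and 3178 CPM in shCCT2 2, against 2747 CPM in shCtrl 1, and at 3943 CPM in shCCT2 3, against 1384 CPM in shCtrl 2. S100A10 differed little in set 1, at 580 CPM in shCCT2 1 and 585 CPM in shCCT2 2, against 606 CPM in shCtrl 1. The log2 changes there were -0.06 and -0.05. In set 2 it had 421 CPM in shCCT2 3, against 186 CPM in shCtrl 2, both below the set 1 levels. The log2 changes of ENO1, a glycolytic enzyme that also binds plasminogen at the surface, were 0.13, -0.02 and 0.91. Those of KRT8, a keratin that binds plasminogen and tPA, were -0.44, 0.20 and 1.76. KRT8 stood at 2386 CPM in shCCT2 3, against 703 CPM in shCtrl 2, and at 2712 to 4215 CPM in set 1. PLGRKT, a plasminogen receptor gene, had log2 changes of -0.77 in shCCT2 3 and 0.26 and -0.04 in set 1. The median over the 5 genes was 1.18 in shCCT2 3, against -0.02 over all genes, and -0.06 and -0.02 in shCCT2 1 and 2. ANXA2, S100A10 and KRT8 had their lowest level of all libraries in shCtrl 2, while ENO1 and PLGRKT did not.

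Of 7 listed genes for proteases that cut pro-uPA or open the cascade, 5 were tested and none passed, while all 5 had a fitted change below 0 (51.5% of all genes) and 3 were lower in all 3 knockdown libraries (21.4% of all genes). CTSB, which encodes cathepsin B, an activator of pro-uPA, stood at 254 CPM in shCCT2 1 and 429 CPM in shCCT2 2, against 509.9 CPM in shCtrl 1, and at 326 CPM in shCCT2 3, against 883 CPM in shCtrl 2. Its 3 knockdown values all lay below both controls, and the fitted change was -0.96 ± 0.32 (SE; edgeR, unadjusted p = 0.0231, Benjamini-Hochberg adjusted p = 0.542). TMPRSS4, a membrane serine protease that can activate pro-uPA, had 1.001, 4.95 and 6.39 CPM in shCCT2 1, 2 and 3, against 7.44 CPM in shCtrl 1 and 30.2 CPM in shCtrl 2. Its fitted change was -1.74 ± 0.64 (SE; edgeR, unadjusted p = 0.0324, adjusted p = 0.542). ST14, the matriptase gene, had log2 changes of -0.71, -0.19 and -0.08. CTSL (cathepsin L) and F12 (coagulation factor XII) did not keep 1 direction over the libraries, with fitted changes of -0.19 ± 0.24 and -0.34 ± 0.39.

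Of 17 listed partners of uPAR and clearance receptors, 13 were tested and none passed. The fitted change was below 0 for 10 of them, against 51.5% of all genes, with a median of -0.26, against -0.02 over all genes. The median was -0.81 in shCCT2 3, against -0.02 over all genes, and lay at -0.18 and 0.01 in shCCT2 1 and 2. LRP1, the endocytic receptor that clears complexes of activators with their inhibitors, stood at 30.4 CPM in shCCT2 3, against 94.3 CPM in shCtrl 2, and at 20.6 and 24.7 CPM in shCCT2 1 and 2, against 25.8 CPM in shCtrl 1. MRC2, which encodes the uPAR-associated collagen receptor, stood at 24.2 CPM in shCCT2 3, against 232 CPM in shCtrl 2, with log2 changes of -0.40 and 0.12 in set 1. Of the integrin genes whose products pair with uPAR, ITGB1 had log2 changes of 0.15, 0.07 and -1.16 and ITGAV had -0.18, 0.01 and -1.02. ITGB5, ITGA3 and ITGA5 changed little in shCCT2 3, with log2 changes of -0.01, 0.14 and 0.18, so the integrin genes did not move together. ITGB3 stood at 1.86 CPM in shCCT2 3, against 9.44 CPM in shCtrl 2, and in set 1 it had 0 and 2 counts in shCCT2 1 and 2, against 7 counts in shCtrl 1, with a fitted change of -2.43 ± 0.70 (SE). CAV1, the caveolin gene, went the other way, with log2 changes of 0.14, 0.16 and 1.38. It stood at 762 CPM in shCCT2 3, against 293 CPM in shCtrl 2, and at 1755 to 1959 CPM in set 1. VLDLR, a further clearance receptor, had log2 changes of -0.30, 0.02 and -0.81, with 0.418 CPM or less in set 1.

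SERPINB2 lies on chromosome 18 within a row of clade B serpin genes, and in RefSeq order its nearest protein-coding neighbours are SERPINB7 and SERPINB10. Of 12 other clade B genes listed, 9 were tested, none passed, and 4 were lower in all 3 knockdown libraries, against 21.4% of all genes. SERPINB7 stood at 7.36 CPM in shCCT2 1 and 7.34 CPM in shCCT2 2, against 19.0 CPM in shCtrl 1, and at 14.6 CPM in shCCT2 3, against 1.48 CPM in shCtrl 2. It was thus low in shCtrl 2 as SERPINB2 was. SERPINB5, which encodes maspin, a serpin that does not inhibit proteases, stood at 161 CPM in shCCT2 3, against 27.3 CPM in shCtrl 2, and differed little in set 1 (log2 changes of -0.04 and -0.17).

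Of the genes between SERPINB5 and SERPINB7, SERPINB3, SERPINB4 and SERPINB13 were tested, and all were lower in shCCT2 3 than in shCtrl 2. SERPINB3, a squamous cell carcinoma antigen gene, stood at 5.83 CPM in shCCT2 1 and 34.1 CPM in shCCT2 2, against 70.1 CPM in shCtrl 1, and at 0.601 CPM in shCCT2 3, against 43.2 CPM in shCtrl 2. Its fitted log2 change was -3.36 ± 1.17 (SE; edgeR, unadjusted p = 0.0265, Benjamini-Hochberg adjusted p = 0.542). SERPINB4 had 2.95, 28.1 and 0.546 CPM in shCCT2 1, 2 and 3, against 41.7 CPM in shCtrl 1 and 29.2 CPM in shCtrl 2. SERPINB3 and SERPINB4 are near-identical, so their counts are uncertain one against the other. SERPINB13 had 2.42, 12.2 and 0.873 CPM in shCCT2 1, 2 and 3, against 21.5 CPM in shCtrl 1 and 2.44 CPM in shCtrl 2, so it too was low in shCtrl 2. Its log2 changes were -2.91, -0.79 and -1.10, and SERPINB8, on the far side of SERPINB2, had 0.36, -0.05 and -0.25. The clade B genes on chromosome 6, SERPINB1, SERPINB6 and SERPINB9, had fitted changes of -0.08 ± 0.38, -0.21 ± 0.21 and -0.50 ± 0.51.

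**Figure D4:**
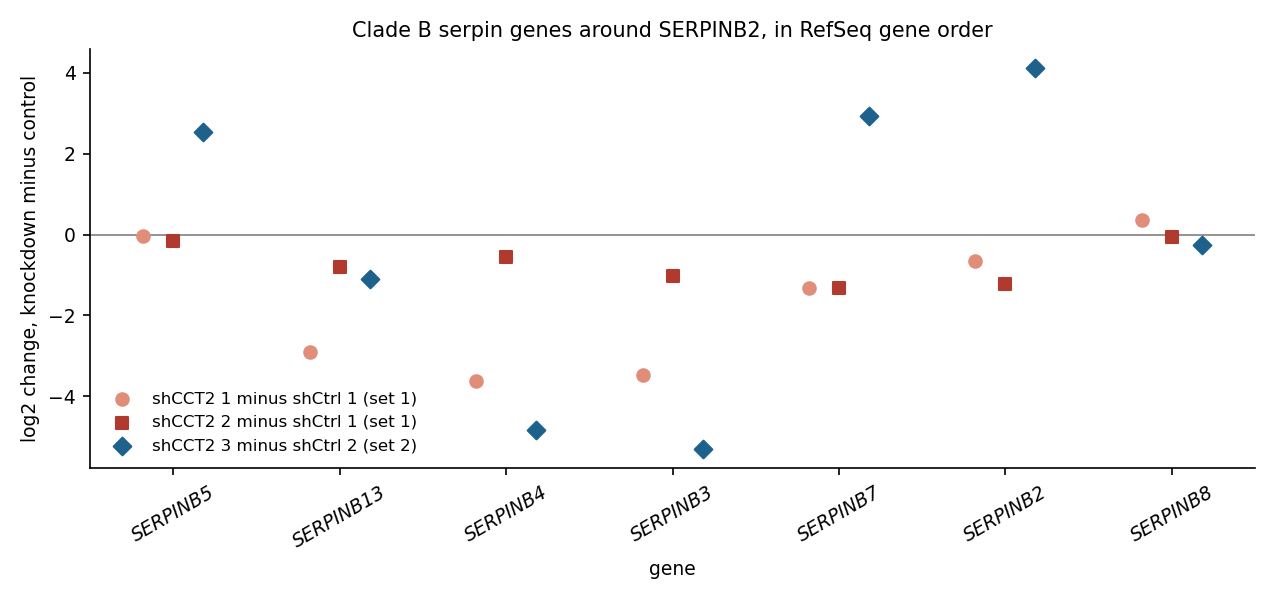
Log2 change of SERPINB2 and the tested clade B serpin genes near it, in RefSeq gene order along chromosome 18, with set 1 libraries as circles and squares and the set 2 library as diamonds. SERPINB5, SERPINB7 and SERPINB2 lie at 2.54, 2.93 and 4.11 in shCCT2 3, and SERPINB4 and SERPINB3 lie at -4.83 and -5.31.

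For each member, the 3 other genes with the most similar profile were found by the Euclidean distance between log2 levels over the 5 libraries, each centred on its mean, among 10718 genes of at least 5 CPM on average. For SERPINB2 these were GAL, the galanin gene, at a distance of 1.04, SERPINB7 at 1.11 and GLB1L2 at 1.57, and no gene lay within 1. GAL stood at 8.07 and 4.30 CPM in shCCT2 1 and 2, against 5.997 CPM in shCtrl 1. In set 2 it stood at 9.39 CPM in shCCT2 3, against 0.477 CPM in shCtrl 2. That value, and the 0.583 CPM of GLB1L2 in shCtrl 2, lie near the 0.5 CPM added before taking log2. SERPINB2 was picked by values of this same profile, so its nearest genes lend no support to its pattern. For SERPINE2 the nearest genes were PTHLH, the gene of parathyroid hormone-related protein, at 0.68, TENM3 at 0.80 and FRMD5 at 0.82. Of all genes compared with SERPINE2, 5 lay within 1. PTHLH stood at 7.60 and 2.51 CPM in shCCT2 1 and 2, against 4.15 CPM in shCtrl 1, and at 112 CPM in shCCT2 3, against 9.17 CPM in shCtrl 2. For PLAT they were BHLHE41 at 0.37, SORCS2 at 0.38 and ITGB6, an integrin gene, at 0.43, with 398 genes within 1. The nearest genes were ADGRA3, SDHAF3 and YARS2 for PLAU and C12orf10, AP2S1 and RAD51B for PLAUR. The log2 levels of PLAU and PLAUR spanned only 0.94 and 0.92 over the libraries, so a gene that varies little also lies near them by this measure.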

How the data were processed

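RNA was sequenced from 5 libraries of SAS cells. The authors deposited expected counts per gene in 2 tables, named read counts per the file headers, and between 86.2% and 87.9% of values in each library were whole numbers. STAR 1.5.1, HTSeq and mm10, a mouse build, appear in the submitters' processing notes with no role. Gene identifiers carry a human taxon prefix, and 98.8% and 98.7% of those in sets 1 and 2 matched human RefSeq genes, while the build and any use of strand in counting were not given in the sources used here. The authors also deposited a coverage signal over windows along transcripts for each library, per the file headers, from which the share in the last 20% of windows was read.

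Rows of both tables were matched by gene identifier, and counts were rounded. Counts were scaled by TMM, low genes were removed with filterByExpr, and 13123 genes were fitted with glmQLFit (edgeR 4.0.16, R 4.3.3) on knockdown and table, with Benjamini-Hochberg adjustment over all of them. The SE is the fitted log2 change over the square root of its F statistic. Changes of single libraries are on log2 of TMM-scaled CPM with 0.5 added, which understates those of low genes. The replicate check found a chi-square per degree of freedom of at least 19.4 for every pair of libraries. Fits were repeated with a replicate block, with DESeq2 1.42.0, with set 1 alone, without the table term, leaving out each library, and with other scaling, filters, pseudocounts and robust dispersion. Poisson intervals cover counting error only.

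The members and lists were chosen with earlier results of these data known. Genes named from a list were the up to 6 tested genes with the smallest unadjusted p. SERPINB7 was named by its likeness to SERPINB2. Others were named after their values were seen: TFPI2, ITGB1, ITGB5, ITGA3, ITGA5, SERPINB1, SERPINB8 and the untested markers KDR, PECAM1, TEK, FCGR3A and ITGAM. Of the squamous and fibroblast markers, the levels were summed, and CDH1 and KRT6A were also given singly after their values were seen. Results for 1 other gene of the pathway are not reported here.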

Additional observations from a re-analysis of the deposited data

Results flagged for a closer look

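In the following genes both set 1 knockdown libraries moved one way against their shared control and the set 2 library moved the other way. The pattern is one of sign alone and sets no least size of change. The genes covered are the members, the tested genes of the pathway lists and the markers ITGAM and PECAM1. The values are the log2 change in shCCT2 3 minus the mean of those in shCCT2 1 and 2. The pattern was found with the set 2 change upward in 11% of all tested genes and downward in 11.6%. SERPINB2, picked for this pattern, had 5.05, and its difference was not tested. SERPINB7, which was found by its likeness to SERPINB2, had 4.24, and SERPINB5 had 2.64. Of the other genes, PLAU had 1.17, the plasminogen receptor subunit gene S100A10 had 1.24 and SERPINA5, an inhibitor gene at 1.85 CPM or less in every library, had 1.00001. With the set 2 change downward, the integrin gene ITGB1 had -1.27. The set 1 changes of S100A10 (-0.06 and -0.05), SERPINB5 (-0.04 and -0.17) and ITGB1 (0.15 and 0.07) were small. The differences of these genes thus came mostly from set 2. The markers ITGAM, at 7 counts or fewer in every library, and PECAM1, at 24 or fewer, had 1.11 and -2.06 and were not tested. Other markers that showed the pattern in either direction are left out, PTPRC (-3.08) among them. No test of the difference is given for SERPINB7, because its likeness to SERPINB2 was found in these same values. SERPINB5, PLAU, S100A10, ITGB1 and SERPINA5 did not pass edgeR's test of the difference between tables after Benjamini-Hochberg adjustment over all genes. The adjusted p-values of that edgeR test were 0.0960 for SERPINB5, 0.198 for PLAU, 0.160 for S100A10, 0.151 for ITGB1 and 0.703 for SERPINA5.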

How the results depend on the processing

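With edgeR, 0 genes passed under every alternative but 1 (0 to 2 with a library left out, 2 without shCCT2 2), and DESeq2's Wald test passed 17, none of them a listed gene. PLAT (-1.18 to -0.42) and PLAUR (-0.53 to -0.11) kept a fitted change below 0 under all 14 alternatives, and no alternative passed a tested member. The fitted change of PLAU was -0.42 in set 1 alone, -0.0021 with no scaling beyond the library total, and -0.42 to 0.77 with a library left out. That of SERPINE2 was 0.27 to 2.69 with a library left out, and that of SERPINB2, a value with no test, was -0.91 to 4.15, with 4.15 without shCtrl 1. With the replicate number as a block in place of the table, PLAU stood at -0.24, SERPINE2 at -0.76, PLAT at -1.18, PLAUR at -0.53 and SERPINB2 at 1.12, and 0 genes passed. Deviations from group means correlated at 0.68 between shCCT2 1 and shCtrl 1. They correlated at -0.60 between shCCT2 2 and shCtrl 2, which stand in different tables. With 2 controls, their deviations mirror each other, so each correlation with shCtrl 2 is that with shCtrl 1 with its sign changed. The sign still followed the table. It was positive between shCCT2 2 and shCtrl 1 (0.60) and between shCCT2 3 and shCtrl 2 (0.73), which share a table. Whether the numbers pair samples beyond the table was not tested. The cause of the shifts in fitted change between settings was not tested. With 1 control in each table, the spread of controls within a table is not measured. No scaling moved the median of all genes to -0.08, against -0.02 with TMM.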
